A study of Homo sapiens with 6 samples.

Results

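The regions described here are the places where, in DMSO-treated LNCaP cells, a listed peak of RNA polymerase I (Pol I) and a listed peak of RNA polymerase II (Pol II) lay on the same DNA. They were chosen by position: a Pol I peak of the DMSO library was a member when it had at least 1 bp in common with a Pol II peak of the DMSO library. Of 42547 DMSO Pol I peaks, 5948 met this rule, which is 14.0% of the list, and 36599 did not. From the other side, 5902 of 28798 DMSO Pol II peaks took part, or 20.5%. LNCaP is an androgen-responsive human prostate cancer cell line. Its cells received the vehicle DMSO or 1 µM BMH-21 for 6 h, and chromatin was then immunoprecipitated with the Pol I antibody C-1 or with 4H8, which recognises the Pol II tail carrying a phosphate on serine 5. Each of these 4 combinations was 1 library from 1 cell line with 1 peak list, while an input library for each treatment was not analysed here. No value below therefore has a replicate error, no difference between libraries or between sets of peaks was tested, and the 95% intervals (exact Clopper-Pearson for shares) reflect nothing beyond the number of peaks counted. The depth of sequencing is unknown, since no read counts come with the lists. For each antibody, the lists of both treatments have 0 overlapping pairs, and running numbers are skipped in each list. The lists may therefore hold only peaks of 1 treatment, with common peaks left out, which no source states. In that case the totals above count listed peaks and not all peaks called, and the lack of a listed BMH-21 peak does not show that the polymerase was gone. A peak list cannot show whether the cells carried the markers of their line.

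Pol I transcribes the precursor of the large ribosomal RNAs in the nucleolus, from repeats that lie on the short arms of the acrocentric chromosomes and are mostly missing from the hg19 assembly. Pol II transcribes protein-coding genes and many noncoding RNAs, and the serine 5 mark is added as it starts to transcribe, so this form is known to be dense near gene starts. BMH-21 intercalates into DNA and inhibits Pol I. The lists cover the 22 autosomes, X and Y of hg19. No gene annotation of hg19 was used, and each region is given by its coordinates.

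The pairing was almost entirely one to one. In 5703 of the 5948 cases (95.9%) the Pol I peak met a single Pol II peak, which in turn met no other Pol I peak. Only 55 Pol I peaks (0.925%) met 2 Pol II peaks, 99 Pol II peaks met 2 Pol I peaks, and 1 Pol II peak met 3. Where a Pol I peak met 2, the Pol II peak with the longer overlap was taken as its partner. Few members owed their place to a touch at the edge, since 11 shared 10 bp or less with Pol II and 115 (1.93%) shared 100 bp or less. Just inside the rule, the peak on chromosome 5 at 133339411 to 133340389 (Pol I score 263.36), the one on chromosome 17 at 16074685 to 16075352 (160.98) and the one on chromosome 10 at 74777608 to 74777848 (69.34) each shared 1 bp with Pol II. Just outside it, the peak on chromosome 16 at 22385192 to 22385502 (60.38) directly adjoined a Pol II peak with a gap of 0 bp, and those on chromosome 9 at 98269129 to 98269506 (57.04) and chromosome 2 at 43454273 to 43454624 (74.36) missed one by 1 and 2 bp. Within 100 bp of a Pol II peak, but not touching it, lay 169 other Pol I peaks.

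The Pol I and Pol II peaks of most pairs had their centres within 100 bp of each other. The midpoint of the Pol II peak was a median of 65.5 bp from the midpoint of the Pol I peak (interval of the median 63.0 to 68.0), on peaks about 500 bp wide. In 2423 members (40.7%) the midpoints were within 50 bp of each other, in 3855 (64.8%) within 100 bp and in 5822 (97.9%) within 500 bp. Neither direction along the coordinates was favoured. The Pol II midpoint had the higher coordinate in 2942 members and the lower in 2990, with 16 exactly equal. The median signed offset, Pol II minus Pol I, was -0.75 bp. Coordinates do not follow the direction of transcription and no annotation was used, so an offset along that direction could not be seen. Peaks of different widths can touch at different distances, so the offset was also divided by the largest offset at which the peaks of the pair would still touch. This relative offset had a median of 0.124. It was 0.25 or less in 4557 members (76.6%, interval 75.5 to 77.7) and 0.5 or less in 5523 (92.9%).

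The rule fixes that members are close to Pol II but not how close, and the peaks around them show the contrast. Over all DMSO peaks of both antibodies, whether or not they overlapped, 2403 Pol I to Pol II pairs had midpoints less than 50 bp apart and 1443 had midpoints 50 to 100 bp apart. Between 100 and 200 bp there were 592 pairs per 50 bp of distance, and between 200 and 300 bp there were 226.5. From there outward the number was level, at 114.5 pairs per 50 bp from 300 to 500 bp, 119.5 from 500 to 1000 bp, 115.8 from 1000 to 1500 bp and 110.4 from 1500 to 2000 bp. The excess of near pairs over this level lay within 300 bp on either side, as the plot of midpoint distances shows.

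**Figure D1:**
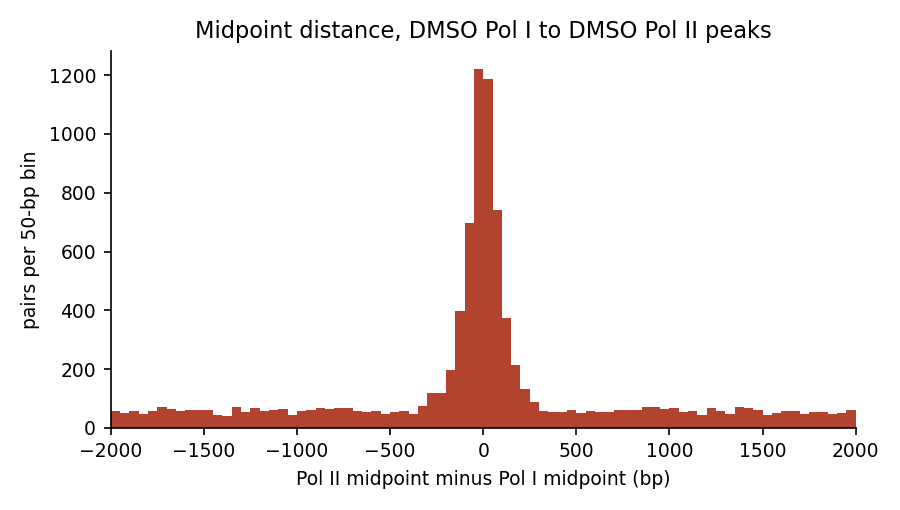
Number of pairs of a DMSO Pol I and a DMSO Pol II peak (vertical axis, per 50-bp bin) by the signed distance of the Pol II midpoint from the Pol I midpoint in bp (horizontal axis), for all pairs within 2000 bp. The bins on either side of 0 hold 1222 and 1188 pairs, and the bins beyond 350 bp form a level floor on both sides.

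The 4 possible arrangements of the paired peaks were about equally common. The Pol I peak lay wholly inside the Pol II peak in 1663 members (28.0%), and the Pol II peak lay wholly inside the Pol I peak in 1409 (23.7%). The remaining pairs overlapped in part, with the Pol I peak shifted to the lower coordinate in 1422 (23.9%) and to the higher in 1454 (24.4%). The stretch in common had a median of 415.5 bp and covered a median of 86.9% of the Pol I peak and 83.3% of the Pol II peak. At least 0.5 of both peaks was in common in 4783 members (80.4%), at least 0.8 in 1759 (29.6%) and at least 0.9 in 529 (8.89%).

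Members were somewhat wider than the other DMSO Pol I peaks but did not include the widest of the list. Their Pol I peaks had a median of 503 bp, with quartiles of 411 and 623 bp and extremes of 139 and 1880 bp. The other DMSO Pol I peaks had a median of 458 bp and reached 6387 bp. The Pol II peaks that took part had a median of 513 bp, against 494 bp for those that did not. A wider peak meets another list more easily, so these differences are tied to the rule. The relation was not a simple climb with width, however. The share of Pol I peaks that met Pol II was 9.75% under 300 bp, 13.0% from 400 to 500 bp, 19.3% from 600 to 800 bp (interval 18.3 to 20.3) and 19.3% from 800 to 1000 bp, and then only 12.5% among the 1086 peaks of 1000 bp or more (interval 10.6 to 14.6). For Pol II peaks it was 13.8% under 400 bp and at least 21.0% in every wider class, for example 22.5% from 700 to 1000 bp.

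Centring was closest between peaks of ordinary width. Where the Pol II partner was 400 to 500 bp wide, the Pol I midpoint was a median of 49.5 bp away, and 80.2% of these Pol I midpoints lay in the central 50% of the Pol II peak. The 439 members under a Pol II peak of 1000 to 1500 bp had a median offset of 204 bp, and the 156 under one of 1500 bp or more a median of 300.75 bp. The Pol I peak varied less: its median width was 453 bp under partners of less than 400 bp, 497 bp under partners of 400 to 500 bp, 516 bp under partners of 1000 to 1500 bp and 509.5 bp under those of 1500 bp or more. Even in the widest class 69.2% of Pol I midpoints lay in the central 50% of the Pol II peak.

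Over the listed pairs, the score of a Pol I peak and that of its Pol II partner were almost unrelated. Both lists hold only scores of at least 50, so pairs with a weaker peak on either side were not seen. The score is the value that the authors' peak list gives for each peak, on a scale that is not stated, and it is used here to order and describe peaks within 1 list. Pol I peaks that met Pol II had a median score of 119.6 against 95.6 for the others, and Pol II peaks that met Pol I had 93.5 against 78.7. Score went with width, as given below, so these differences were not separated from those of width, which are tied to the rule. Over the 5948 pairs, Spearman's rank correlation between the Pol I and the Pol II score was 0.02, and Pearson's r of the log scores was 0.01. Over the 5703 one-to-one pairs the rank correlation was 0.04. Within each list, by contrast, the score of the same peaks went with their width, with a rank correlation of 0.80 for Pol I and 0.79 for Pol II. These correlations are across peaks of 1 library per antibody, and peaks are not independent replicates. When members were ordered by Pol I score into 5 groups of about equal size, the median Pol I score went from 59.5 to 288.7 and the median Pol I width from 358 to 697.5 bp, while the median score of the Pol II partners was 93.3 in the lowest group and 99.2 in the highest. Ordered by Pol II score, the median Pol II score went from 55.8 to 280.3 and the median Pol I score was 114.7 in the lowest group and 116.5 in the highest.

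**Figure D2:**
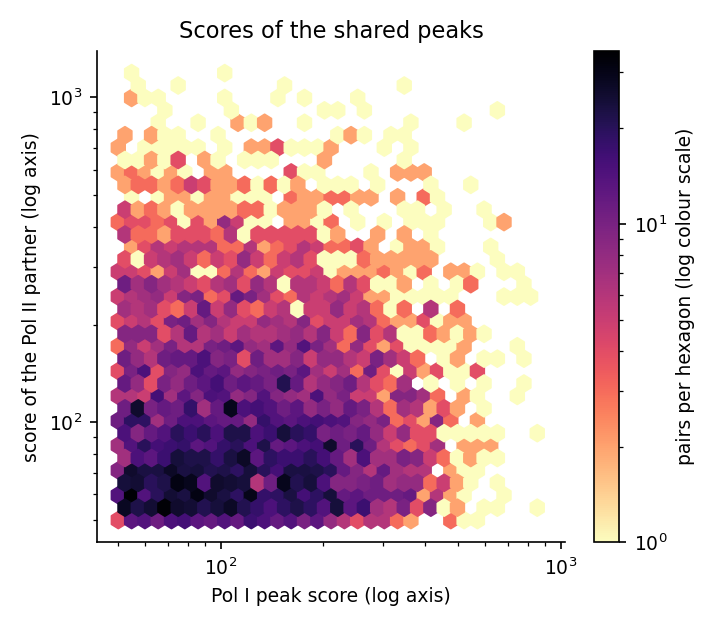
Score of the Pol II partner (vertical log axis) against score of the Pol I peak (horizontal log axis) for the 5948 shared peaks. Colour gives the number of pairs per hexagon, and the cloud is spread over both axes without a diagonal, with a Spearman's rank correlation of 0.02.

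The 5 members with the highest Pol I scores had Pol II partners with scores from 55.76 to 236.11. These lay on both sides of the median of 93.5 for Pol II peaks that met Pol I. The highest, 891.83, was on chromosome 2 at 173019862 to 173020647, where the whole Pol II peak of 334 bp lay inside the Pol I peak with a midpoint offset of 6.0 bp but a score of only 55.76. The next were on chromosome 15 at 89921443 to 89922263 (Pol I 837.94, Pol II 88.74), chromosome 14 at 65568860 to 65569811 (801.02 and 236.11), chromosome 10 at 82228324 to 82229403 (792.23 and 132.9) and chromosome 1 at 109694595 to 109695362 (783.45 and 154.16). In all 5 the Pol II partner lay wholly inside the Pol I peak.

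Of the 5 members under the highest-scored Pol II partners, all but the first lay wholly inside Pol II. The partner with the highest score, 1188.58, ran on chromosome 1 from 43831753 to 43834292, and its Pol I peak of 700 bp and score 100.94 lay across its upper end with 630 bp in common, 990 bp from its centre. On chromosome 19 a Pol II peak at 54693934 to 54696090 (score 1172.81) held a Pol I peak of 290 bp and score 56.72 at its centre, with an offset of 6.5 bp. A Pol II peak on chromosome 16 at 84149840 to 84151795 (1051.35) held a Pol I peak of 867 bp and score 340.91. One on chromosome 12 at 1702661 to 1704387 (1044.72) held 2 Pol I peaks, 289 and 643 bp wide and 113 bp apart, with scores of 58.58 and 150.3.

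Long stretches of both polymerases were few. The longest overlap, 1534 bp, was on chromosome 1 at 215740188 to 215741987, where Pol I had a score of 421.29 and Pol II 479.0. It was followed by chromosome 3 at 75720660 to 75722119 (1460 bp in common), chromosome 7 at 128170943 to 128172387 (1445 bp), chromosome 3 at 179040513 to 179041867 (1355 bp) and chromosome 5 at 176852532 to 176853783 (1252 bp). In the last 4 the Pol I peak was wholly under Pol II. The region on chromosome 7 had a high score for both, 630.14 for Pol I and 940.23 for Pol II. The 3 largest offsets, 1522.5, 1140 and 1056.5 bp, were on chromosomes 2, 11 and 16, with Pol I towards one end of a Pol II peak of 3353, 2693 and 3356 bp. Besides the chromosome 14 region named above, the highest-scored Pol I peaks over 2 Pol II peaks were on chromosome 10 at 12084298 to 12085578 (1281 bp wide, score 738.72) and chromosome 1 at 46712752 to 46713680 (score 576.9). The single Pol II peak with 3 Pol I peaks was on chromosome 11 at 23615249 to 23616267 and had a score of 87.36, with Pol I scores of 74.83, 110.72 and 106.1. A Pol II peak on chromosome 6 at 109415676 to 109417048 met 2 Pol I peaks, of scores 68.08 and 644.73.

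In the list, Pol II peaks that coincided with Pol I were more often solitary than those that did not. The nearest other listed Pol II peak was a median of 28414 bp away from a Pol II peak that met Pol I, and 2049 bp away from one that did not. Among the 15689 Pol II peaks with another within 5 kb, 1358 met Pol I (8.66%, interval 8.22 to 9.11). Among the 8521 with none within 20 kb, 3352 did (39.3%, interval 38.3 to 40.4). The share climbed through every step of spacing from 1 kb upward, from 8.60% at 1 to 2 kb to 23.1% at 5 to 10 kb, 36.3% at 20 to 50 kb and 43.2% at 200 kb or more. Solitary peaks made up 56.8% of the Pol II peaks that met Pol I and 22.6% of the rest.

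Width and score of the Pol II peaks did not run along with this. Pol II peaks under 5 kb from the next had a median width of 519 bp and those at 20 kb or more a median of 472 bp, so the solitary ones were narrower, and their median scores were 81.4 and 81.6. Within each class of Pol II width the order was the same. Under 400 bp the share was 3.74% for peaks within 5 kb of another and 31.2% for those at 20 kb or more, and at 1000 bp or more it was 15.5% and 51.1%. The lists skip some running numbers, so a peak that appears solitary may have had an unlisted neighbour. Counting only Pol II peaks whose preceding and following numbers were both listed, the shares were 8.55% under 5 kb and 44.1% at 20 kb or more. These were 634 of 7413 peaks and 525 of 1191. Among such peaks that met Pol I, solitary ones were thus fewer than those under 5 kb, unlike in the whole list.

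The spacing of the Pol I list showed no such gradient. Pol I peaks with another Pol I peak within 5 kb met Pol II in 14.3% of cases and those 20 kb or more from the next in 13.2%, with 9.88% (interval 7.61 to 12.6) among the 597 Pol I peaks at 200 kb or more. Members had their nearest other Pol I peak at a median of 12890.5 bp and the other Pol I peaks at 14018 bp.

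**Figure D3:**
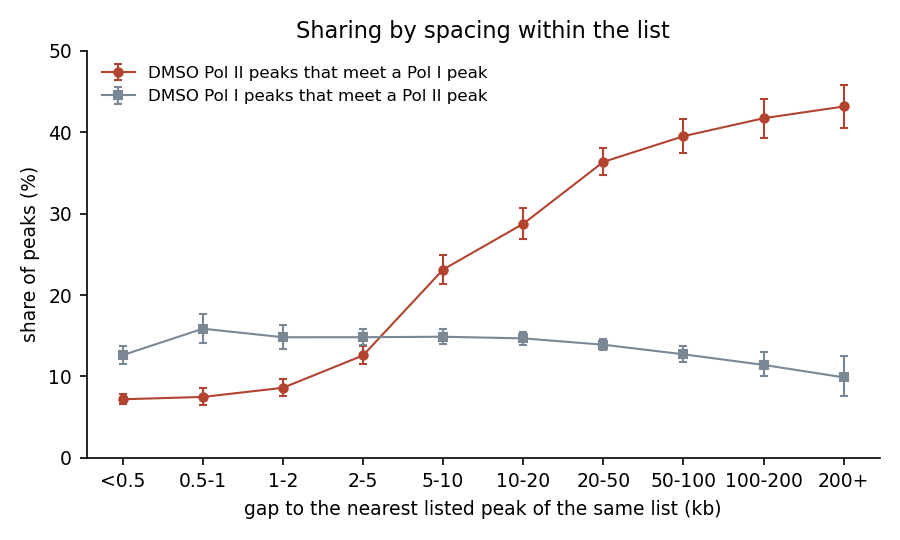
Share of DMSO Pol II peaks that meet a Pol I peak (circles) and of DMSO Pol I peaks that meet a Pol II peak (squares), in percent, by the gap in kb to the nearest listed peak of the same list. Bars are exact Clopper-Pearson 95% intervals, and the Pol II share goes from 7.19% under 500 bp to 43.2% at 200 kb or more while the Pol I share stays between 9.88% and 15.9%.

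Members also differed among themselves with the spacing of their partner. The 3390 members with a solitary partner (20 kb or more from the next Pol II peak) were the more closely centred, with a median offset of 55 bp and 82.0% (interval 80.7 to 83.3) at a relative offset of 0.25 or less. The 1342 members whose partner had another Pol II peak within 5 kb had a median offset of 101.25 bp and 65.0% (interval 62.4 to 67.5) at that relative offset. Partners of the first kind were narrower, with a median width of 486 against 615.5 bp, and had a lower median score of 88.0 against 110.6. The Pol I peaks on them had a higher median score, 123.4 against 105.9.

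Dense runs of Pol II peaks, taken as 10 or more with no gap over 10 kb, held many Pol II peaks of which few met Pol I. In the DMSO Pol II list 260 such runs contained 5125 Pol II peaks, of which 206 met Pol I (4.02%), against 24.1% of the Pol II peaks outside runs. The runs contained 514 Pol I peaks, and 205 of these were members (39.9%), against 13.7% outside. A Pol I peak in a run has more Pol II peaks around it to meet, so this share is tied to how the runs were chosen. Members occurred in 115 of the 260 runs.

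Along the chromosomes members were scattered. The gap from one to the next had a median of 238635 bp, with quartiles of 71039 and 613603 bp. Groups with gaps of 10 kb or less were few, namely 336 pairs, 32 triplets and 2 groups of 4. When the genome was divided into 1-Mb windows, 2186 windows held a member, 337 held 5 or more, and the fullest held 14. After a member, the next Pol I peak of the list was again a member in 17.1% of cases, and after another Pol I peak in 13.5%. That excess was largest for neighbours within 1 kb, at 41.7% (159 of 381) against 9.14%, and 91 of those 159 pairs lay under the same Pol II peak.

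Both groups of 4 were on chromosome 9. The first ran over 14627 bp from 130727697 to 130742323, with Pol I scores of 224.89, 104.9, 69.43 and 61.29 on 3 Pol II peaks of 1244, 1332 and 1590 bp. The other ran over 8188 bp from 79512419 to 79520606, also on 3 Pol II peaks, and its last Pol I peak, of 915 bp and score 155.73, lay wholly inside a Pol II peak with a score of 602.93. The triplet with the highest Pol I score was on chromosome 11 at 1569636 to 1581095. Its last peak, 823 bp wide, had a Pol I score of 595.64 and a Pol II score of 351.84, and shared that Pol II peak with its neighbour.

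All 24 chromosomes had members, from 10 on chromosome Y to 539 on chromosome 1. The share of Pol I peaks that met Pol II had a median of 13.8% and ranged from 12.1% to 18.9% except on chromosome Y. It was highest on chromosome 22 (18.9%, interval 15.9 to 22.2), chromosome 19 (18.3%, interval 16.2 to 20.6) and chromosome 16 (17.5%, interval 15.5 to 19.6), and lowest on chromosome Y (5.81%, interval 2.82 to 10.4). It went with the density of the Pol II list, with a Spearman's rank correlation of 0.65 and a Pearson's r of 0.72 across the 24 chromosomes, which share libraries and differ in size. Where Pol II peaks are denser, a Pol I peak has more of them to meet, so this relation is tied to the rule. Seen from Pol II the order differed in part. Chromosome Y was again the lowest (9.80%, 10 of 102), and chromosome 22 (19.2%, interval 16.2 to 22.6) was below the median of 21.1%. Only 12.8% of chromosome 19's Pol II peaks met Pol I (interval 11.2 to 14.4) and 15.8% of chromosome 16's, against 25.8% on chromosome 8 (interval 23.2 to 28.5) and 25.5% on chromosome 18. That share went with the median gap between a chromosome's Pol II peaks, with a rank correlation of 0.90 but an r of 0.40. Chromosome X, with a median gap of 26827 bp, was far from the others on that axis and had a share of 22.4%. Members on chromosome 19 also had the largest median offset, 110.25 bp, and those on chromosome 18 the smallest, 46.5 bp. Median width ran from 420 bp on chromosome X to 535 bp on chromosome 5.

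**Figure D4:**
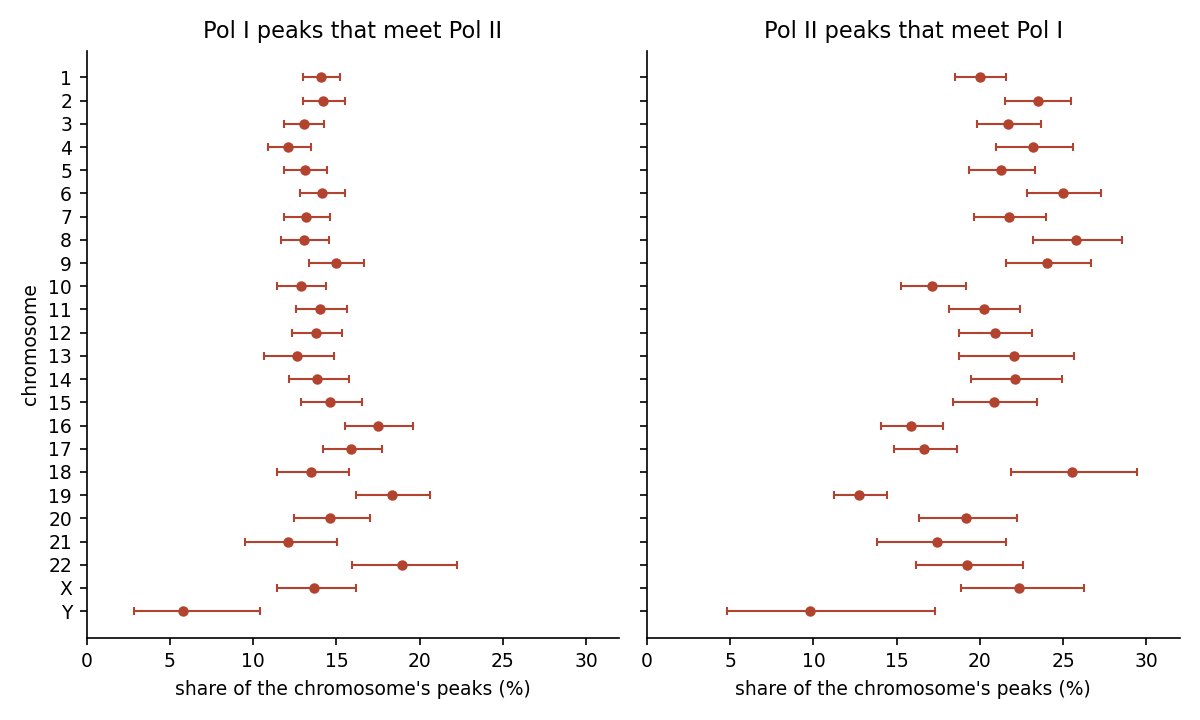
Share of DMSO Pol I peaks that meet a DMSO Pol II peak (left panel) and of DMSO Pol II peaks that meet a DMSO Pol I peak (right panel), in percent, for each chromosome. Points are shares and bars exact Clopper-Pearson 95% intervals, and chromosome 19 is among the highest on the left at 18.3% and among the lowest on the right at 12.8%.

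Few members had a listed BMH-21 Pol II peak on them. A BMH-21 Pol II peak overlapped 26 members (0.437%, interval 0.286 to 0.640), against 2.43% of all DMSO Pol I peaks and 2.76% of those that are not members. This difference cannot be read as it stands. The DMSO and BMH-21 lists of Pol II have 0 overlapping pairs, and 79.7% of the members' length was under DMSO Pol II, where a listed BMH-21 Pol II peak could not be. Loss of Pol II from a member and removal of a peak common to both treatments cannot be told apart here. On the remaining 0.647 Mb there were 40.2 overlapped members per Mb (exact Poisson interval 26.3 to 58.9), against 54.9 per Mb (51.6 to 58.4) on the Pol I peaks that are not members. By length, BMH-21 Pol II covered 0.806% of this free DNA in members and 1.79% in the others. These values do not remove the limit. The 1663 members wholly inside DMSO Pol II had no free DNA, and in the rest it lay beside a DMSO Pol II peak. A listed BMH-21 Pol II peak there could not extend onto that peak, whereas the other Pol I peaks were free over their whole length. No conclusion is drawn from this comparison. Where BMH-21 Pol II did overlap a member, it took the part that DMSO Pol II left free. On chromosome 1 at 225696021 to 225696649 (Pol I score 221.47), DMSO Pol II covered 12 bp of the lower end and a BMH-21 Pol II peak of 355 bp lay inside the rest. On chromosome 15 at 40076762 to 40077792, DMSO Pol II covered 483 bp at the upper end and BMH-21 Pol II 329 bp at the lower end. Chromosome 11 (126251737 to 126253288), chromosome 12 (104232253 to 104233282) and chromosome 9 (134293711 to 134294122) each had a BMH-21 Pol II peak, of 325, 324 and 314 bp, wholly within the Pol I peak and beside the DMSO Pol II peak.

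Members were below the other Pol I peaks within 1 kb of BMH-21 Pol II, level with them within 5 kb and slightly above them within 10 kb. Within 1 kb of a BMH-21 Pol II peak, overlaps included, lay 148 members (2.49%, interval 2.11 to 2.92), against 3.83% of all DMSO Pol I peaks. Of those that are not members it was 4.05%. Overlap was limited by the lists, so leaving out overlapped peaks removed 26 members and 1010 others. Of the members not overlapped, 2.06% (interval 1.71 to 2.45) had one within 1 kb, against 1.33% (interval 1.21 to 1.45) of the other Pol I peaks not overlapped. Within 5 kb the shares were 8.36% of members and 8.40% of the others. Within 10 kb lay 824 members (13.9%, interval 13.0 to 14.8), near the 13.1% of all DMSO Pol I peaks. The others had 12.9% (interval 12.6 to 13.3). Of the members with none within 1 kb, 11.7% (interval 10.8 to 12.5) had one within 10 kb, against 9.25% (interval 8.95 to 9.56) of the other Pol I peaks. The median gap was 94652.5 bp for members and 117150 bp for the others.

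Set beside the rest of the DMSO Pol II list, the Pol II peaks of these pairs were far from BMH-21 Pol II. Their median gap to it was 95322 bp, against 16081.5 bp for DMSO Pol II peaks without Pol I, and 13.8% against 41.9% had it within 10 kb. Solitary Pol II peaks were farther from BMH-21 Pol II in general, and the difference was smaller within classes of spacing. Among Pol II peaks within 5 kb of another the shares within 10 kb of BMH-21 Pol II were 31.1% (interval 28.7 to 33.7) with Pol I and 54.8% (54.0 to 55.6) without, and among those at 20 kb or more 6.00% (5.22 to 6.85) and 11.8% (10.97 to 12.8). In the 54 dense runs of BMH-21 Pol II peaks, 1 of 144 DMSO Pol I peaks was a member (0.694%), against 14.0% outside them. DMSO Pol II peaks cannot overlap the listed BMH-21 Pol II peaks of these runs, which lowers that share by construction.

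Listed BMH-21 Pol I peaks were rarely near. The Pol I lists of DMSO and BMH-21 have 0 overlapping pairs, so none could lie on a member, and members whose Pol I peak was called in both treatments may be missing from the lists. Within 1 kb lay those of 24 members (0.403%, interval 0.259 to 0.600), against 0.578% of all DMSO Pol I peaks. Within 10 kb there were 106 (1.78%, interval 1.46 to 2.15), below the 2.45% of all DMSO Pol I peaks and the 2.56% (interval 2.40 to 2.73) of those that are not members. Leaving out the peaks closer than 1 Mb to each chromosome's longest stretch without peaks, these shares were 1.75% (interval 1.43 to 2.11) and 2.51% (interval 2.35 to 2.68). Median gaps were alike, 613230 bp for members and 618852 bp for the others. The 5 members nearest to a BMH-21 Pol I peak had it at 52 bp (chromosome 5, 15719618 to 15720385), 58 bp (chromosome 5 at 140940174 to 140940705), 68 bp (chromosome 21 at 30674933 to 30675198), 69 bp (chromosome 13 at 55211864 to 55212262) and 89 bp (chromosome 1 at 55680475 to 55681325). Those BMH-21 peaks were 197 to 249 bp wide and had scores between 52.41 and 74.86 on the scale of their own list.

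**Figure D5:**
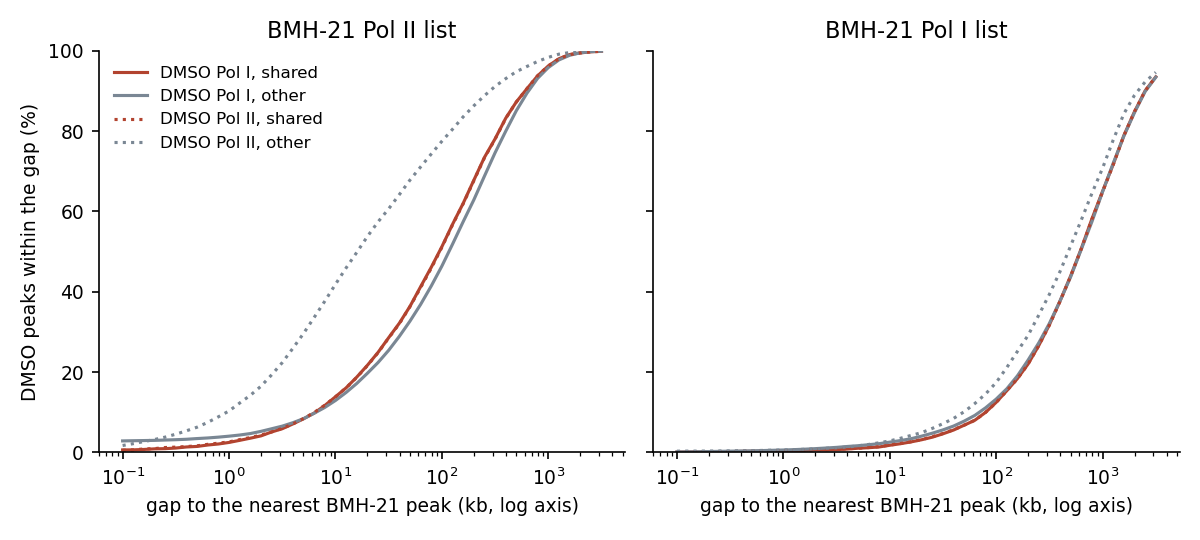
Cumulative share of DMSO peaks (vertical axis, percent) by the gap to the nearest peak of the BMH-21 Pol II list (left panel) and BMH-21 Pol I list (right panel), in kb on a log axis. Red lines are peaks shared by Pol I and Pol II, solid for the Pol I and dotted for the Pol II peak of the pair, which nearly coincide, and grey lines are the other peaks; on the left the other Pol II peaks reach 41.9% within 10 kb and the shared ones 13.8%.

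Both pairings with the BMH-21 Pol II list also showed centring, to a lesser degree by relative offset, and BMH-21 Pol I with DMSO Pol II showed the least. In bp, the median offsets of those 2 pairings were near the 65.5 bp of members. Their Pol II peaks were narrower, with medians of 306 and 294 bp against 515 bp, which raises a relative offset. The lists differ in length and peak width, and these values were not compared by a test. The median relative offset was 0.124 for members and 0.166 for DMSO Pol I under BMH-21 Pol II. For BMH-21 Pol I it was 0.211 under BMH-21 Pol II and 0.366 under DMSO Pol II. The 1036 DMSO Pol I peaks under a BMH-21 Pol II peak had a median offset of 69.5 bp, and 67.4% (interval 64.4 to 70.2) had a relative offset of 0.25 or less, against 76.6% of the members described here. The 184 BMH-21 Pol I peaks under a BMH-21 Pol II peak had a median offset of 66.5 bp and 56.5% (interval 49.0 to 63.8). The 70 BMH-21 Pol I peaks under a DMSO Pol II peak had 123 bp and 37.1% (interval 25.9 to 49.5).

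Running numbers are skipped in the lists, and for Pol I they were skipped about as often after a member as after another peak. The number following a member's was listed in 77.8% of cases (interval 76.7 to 78.8), and for the other Pol I peaks in 77.2%. For Pol II it was 49.7% after a peak that met Pol I and 59.0% after the rest. Among Pol II peaks 20 kb or more from the next it was 39.1% (interval 37.4 to 40.7) and 35.3% (interval 34.0 to 36.6). Overlaps with peaks that are not in the lists were not counted.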

How the data were processed

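The data were peak lists of 4 ChIP libraries, grouped by sample title, with 1 library per antibody and treatment. The build was hg19, and CASAVA (1.8.2), Bowtie2 (2.2.1) and deepTools (3.5.4) served upstream, per the submitters' processing notes. The peak names begin with MACS. Its version and settings, the use of input and the choice of peaks for the lists are not given in the sources. The authors' deposited score, which the file headers call a p-value, is at least 50 and on an unstated scale, so it was used within a list only. Starts were taken as zero-based, after the deposited format, and are printed as first bases.

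Overlaps, midpoints, gaps between peak ends and order-statistic intervals of medians were computed with Python (3.11.15), NumPy (2.4.6), pandas (2.3.3) and SciPy (1.17.1). Figures were drawn with matplotlib (3.10.9). The functions that pair overlapping peaks and find the nearest peak were tested on simulated data, and the others were not. Regions named were those with the extremes of score, overlap, offset, grouping and nearness to BMH-21 peaks, with ties ordered by Pol I score. The members, lists and alternatives were chosen with earlier results of these data known. Spacing classes and relative offsets were chosen after seeing the data. No sequence is printed, as no hg19 sequence was used.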

Additional observations from a re-analysis of the deposited data

How the results depend on the processing

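With 1 library per group no replicate could be left out, and depth, which is unknown, was not adjusted for. No paired analysis was possible because each group had 1 library. Over 11 results, 97 values under other settings were computed, 53 of them planned and 44 chosen after seeing the data, and 62 stayed within the limit set for their result. That limit was the counting interval of the reported share or median, 1.5 times for the number of shared peaks and 0.1 for the rank correlation. The number of shared peaks was 5948 as reported and between 5581 and 5896 under every alternative except the stricter score. Spearman's rank correlation of the 2 scores was between 0.01 and 0.04 throughout.

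Requiring an overlap of 50% of the shorter peak, and requiring the Pol I midpoint inside the Pol II peak, gave median offsets of 61.75 and 60.5 bp, median gaps to the next shared peak of 253094 and 258881 bp, and 79.9% and 81.2% of peaks at a relative offset of 0.25 or less. The shares of Pol II peaks that were shared were then 38.3% and 37.7% at 20 kb or more from the next, and 7.99% and 7.74% under 5 kb. Both settings by construction drop pairs that touch at their edges. Chromosome 19 replaced chromosome 22 as the highest under the first, at 17.1%.

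Keeping only peaks at or above the median score of their list left 2245 shared peaks, with a median width of 597 bp, an offset of 70 bp, a gap to the next of 666356 bp, 80.7% at the relative offset, and 3.03% with a BMH-21 Pol II peak within 1 kb. The highest chromosome was 19 at 14.4%, and the spacing shares were 25.8% and 5.61%. Fewer peaks entered by construction.

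Peaks of at least 300 bp gave a width of 514 bp, a gap of 253310 bp, 77.7% at the relative offset and 37.9% at 20 kb or more. Merging peaks within 1000 bp gave a width of 528 bp, an offset of 76.5 bp, a gap of 251100 bp, 70.3% at the relative offset and 10.4% under 5 kb. Leaving out dense runs of Pol II peaks gave a gap of 253469 bp and 10.9% under 5 kb. Pol II peaks with both neighbouring numbers listed gave 44.1% at 20 kb or more. By construction, dropping narrow peaks and merging peaks raise the width, and fewer shared peaks lie farther apart. Leaving out the runs removed Pol II peaks of which 4.02% met Pol I. For the other shifts under these 4 settings the cause was not tested. Taking near as 10 kb in place of 1 kb gave 13.9% with BMH-21 Pol II and 1.78% with BMH-21 Pol I, and taking it as overlap gave 0.437% and 0%.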
